A study of Chromochloris zofingiensis with 18 samples.

Results

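The passage from 6 to 12 h of sulfur starvation (SS) in the unicellular green alga Chromochloris zofingiensis was examined, by comparing the 3 SS-12 h samples with the 3 SS-6 h samples over all genes. These are 6 of the 18 samples of the series, and the comparison covers 15220 genes, which is every gene listed in at least 1 of the 18. Both groups were suspension cultures of strain ATCC30412 grown photoautotrophically under continuous light in air enriched with CO2. Exponentially growing cells had been washed and moved into a modified Kuhl medium whose magnesium sulfate was replaced by magnesium chloride, and were harvested after 6 h or after 12 h. The other conditions, with 3 samples each, are the cells before starvation (0 h), cells starved for 24 h (SS-24 h) or for 48 h (SS-48 h), and cells 12 h after sulfur was given back (SR-12 h). All cultures came from the same strain, so the values describe this strain in photobioreactors only. The identity of the material was checked on the chloroplast proteins expected of a green alga: the small subunit of Rubisco (RBCS) and all 18 light-harvesting antenna genes used here were listed in each of the 6 samples.

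Sulfur is taken up as sulfate and built into cysteine and methionine, and a green alga deprived of it slows protein synthesis and division, trims its photosynthetic apparatus and stores carbon as starch and triacylglycerol (TAG). Fatty acids are made in the chloroplast from acetyl-CoA: acetyl-CoA carboxylase forms malonyl-CoA, the transacylase MCT moves the malonyl group onto acyl carrier protein, and the enzymes KAS, KAR, HAD and ENR lengthen the chain. Acyl chains are then joined to glycerol by acyltransferases and stored in lipid droplets, while the carotenoid pathway, which C. zofingiensis can extend to astaxanthin, runs from isoprenoid precursors through lycopene.

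Expression was given as FPKM (fragments mapped per length of transcript, scaled to the mapped total of the library), so that levels of different genes can be set side by side. Being relative, FPKM cannot tell less RNA per cell from fewer expressing cells. Relative depth, read from the smallest steps between low FPKM values, was 0.782 for SS-6 h replicate 1 and 0.958 to 1 for the other 5 samples, on a scale where SS-12 h replicate 2 is 1. SS-6 h replicate 1 stood apart in its values too. Of 13778 genes with a mean of at least 1 FPKM, 11.2% and 16% differed at least 2-fold between it and the other SS-6 h samples, against 0.544% between those other samples and 0.392 to 0.472% between SS-12 h samples. The 73 cytosolic ribosomal protein genes summed to 15.7% of all FPKM in that library and to 9.95% and 9.03% in the other SS-6 h libraries, with 11.9 to 13.3% at SS-12 h.

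More genes were called higher than lower between 6 and 12 h, by a margin that depended on the scaling. A gene was called when its log2(FPKM + 1) differed by at least 1 between the condition means and the adjusted p of limma's moderated test, corrected over all genes, was at most 0.05. At SS-12 h 1533 genes, 10.1% of those tested, were called higher, and 788 genes, 5.18%, were called lower. Called rises had a median log2 difference of 1.47 and started from low levels, with a median of 6.80 FPKM at SS-6 h and 24.9 FPKM at SS-12 h. The called falls had a median of -1.40 and started high, with a median of 95.8 FPKM at SS-6 h and 30 FPKM at SS-12 h. On the log2(FPKM + 1) scale 419 rises and 157 falls passed 2 in size, and 1 rise and 11 falls passed 4. The added 1 shrinks rises that start below 1 FPKM more than falls that start high, so this order of sizes holds for that scale only.

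**Figure D1:**
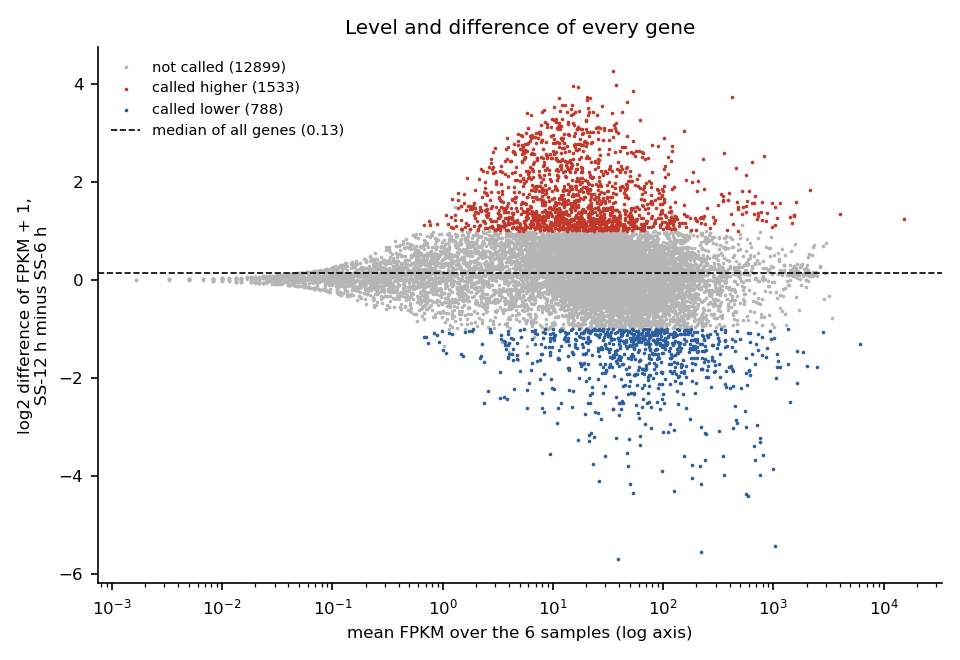
Each point is a gene, with its mean FPKM over the 6 samples on a log axis and its log2 difference of FPKM + 1 (SS-12 h minus SS-6 h) on the vertical axis. Red points are the 1533 genes called higher, blue points the 788 called lower, and the dashed line is the median of all genes, 0.13. On this scale, which flattens differences of genes under 1 FPKM, the falls reach below -5.

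The median of all genes was itself 0.13 higher at SS-12 h on the log2 scale, and the differences given here are to be read against that shift. Median-of-ratios scaling, which brought this median to 0.015, left 1238 genes higher (8.13% of genes) and 1043 lower (6.85%), so that rises were 54.3% of the calls, against 66.0% without it. All 788 falls remained called under it. Rises and falls were close in number under quantile normalization, at 935 and 883. With median-of-ratios scaling and SS-6 h replicate 1 left out they were 1181 and 1161. Without SS-6 h replicate 1 the counts were 1438 and 918, and 1267 of the 1533 rises and 692 of the 788 falls were still called. In nearly all called genes the samples of the conditions were separate, 1526 of the rises and 769 of the falls. A name or description was at hand for 618 of the 15220 genes, among them 102 of the rises and 80 of the falls. Rankings of named genes cover these only, and some of the names came from study lists chosen on the SS-6 h samples.

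Of the 8 metabolic pathways taken from the study's pathway table, fatty acid synthesis had the lowest median. Of its 23 genes, 14 were called lower and none higher, with a median log2 difference of -1.57 against 0.13 for all genes. The 23 genes together summed to 13180, 10575 and 11486 FPKM in the SS-6 h samples and to 3334, 3755 and 3354 FPKM in the SS-12 h samples. Under median-of-ratios scaling, and also without SS-6 h replicate 1, 15 were lower. MCT1, the malonyl-CoA transacylase, stood at 657, 497 and 559 FPKM in the SS-6 h samples and at 64.2, 75.5 and 58.7 FPKM at SS-12 h, a log2 difference of -3.09 ± 0.11 (SE) with adjusted p = 7.18e-11. Its lowest 6 h value was thus far above its highest 12 h value. KAS I, a condensing enzyme that elongates the acyl chain, went from 1457, 1089 and 1194 FPKM to 151, 188 and 140.2 FPKM (-2.96 ± 0.14, adjusted p = 3.4e-10).

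Other genes of the elongation cycle were called lower too. HAD, the dehydratase, fell by 2.86 on the log2 scale and KAR1, a reductase, by 2.67. All 5 genes of the multi-subunit plastid acetyl-CoA carboxylase (BC, BCCP1, BCCP2 and the alpha and beta carboxyltransferases), a subset formed by role, were lower, with log2 differences from -2.14 to -1.71. ENR, the last reductase of the cycle, fell by 1.57 and KAS III, which starts it, by 1.75. The 9 members not called ranged from -0.90 to 0.86. They include 5 of the 7 KAR genes, MCT2 and ACP2, so that for KAR, MCT and ACP some copies were called and others were not.

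In the list of acetyl-CoA sources some genes were called and others not. Of 13 genes 6 were called lower and none higher (median -0.24). Pyruvate dehydrogenase, which makes acetyl-CoA from pyruvate, had 4 of 7 subunit genes called lower, from PDHC5 (E2 subunit; -2.16 ± 0.12, adjusted p = 2.14e-09) to PDHC7 (E3; -1.65). PDHC5 had 716, 635 and 769 FPKM at SS-6 h and 154, 168 and 151 FPKM at SS-12 h, with no overlap. Its other 3 subunit genes did not pass the test and the highest stood at 0.19.

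In glycolysis 7 of 34 genes were called lower and 2 higher, with a median of -0.07. Of the 7 falls, 5 were in pyruvate kinases and phosphoglycerate mutases, late steps of the pathway. PK5, a pyruvate kinase, went from 162, 171 and 191 FPKM to 27.4, 33.95 and 27.6 FPKM (-2.52 ± 0.13, adjusted p = 7.34e-10), and PGAM3 and PGAM1, phosphoglycerate mutases, fell by 2.21 and 2.20 on the log2 scale. Genes of single families parted here: FBA4 and FBA3, both fructose-bisphosphate aldolases, had differences of -1.81 ± 0.11 (adjusted p = 4.85e-09) and 1.91 ± 0.12 (adjusted p = 5.04e-09). FBA4 held 439, 318 and 301 FPKM at SS-6 h and 99.0, 100.3 and 95.4 FPKM at SS-12 h, while FBA3 held 15.9, 20.8 and 15.6 FPKM and then 63.4, 74.7 and 65.4 FPKM. FBP1, the fructose-1,6-bisphosphatase that runs the opposite way to glycolysis, was the other member to rise (1.29 ± 0.09, adjusted p = 1.63e-08). The oxidative pentose phosphate pathway, a source of NADPH, had 3 of 15 genes lower, among them 6PGD (-1.39), and RPI1 higher (1.22). In the TCA cycle only OGDH1 of 17 genes was called (-1.30). Of all genes 10.1% were called higher and 5.18% lower, so the TCA count is near the share of all genes and the glycolysis rises are below it.

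**Figure D2:**
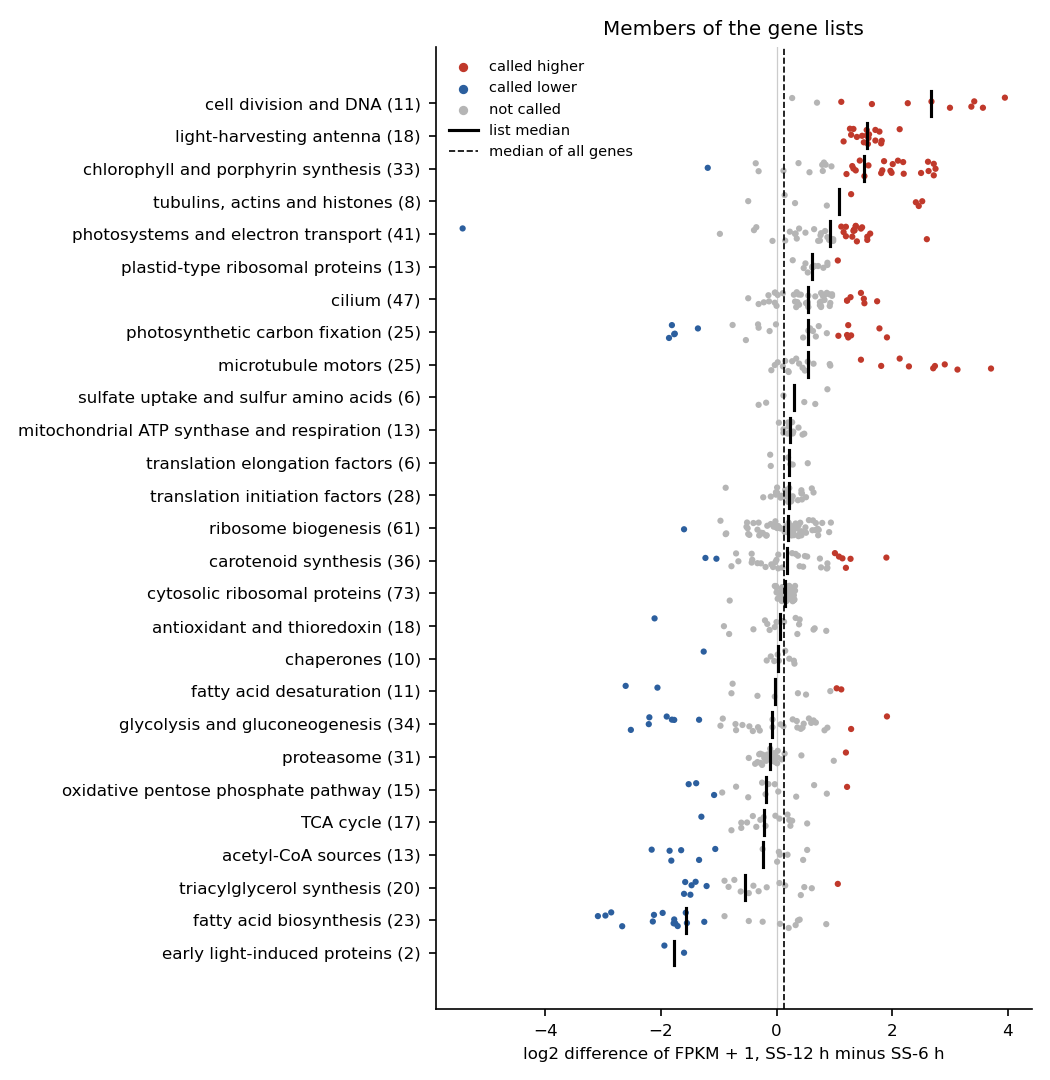
Each row is a list of genes with its number of members, each point a member at its log2 difference of FPKM + 1 (SS-12 h minus SS-6 h), and points are red when called higher, blue when called lower and grey when not called. Black bars are list medians and the dashed line is the median of all genes. Cell division (2.68), antenna (1.57) and chlorophyll (1.52) medians lie to the right, the fatty acid synthesis median (-1.57) to the left, and the 73 ribosomal proteins sit on the dashed line.

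Of 20 genes of TAG synthesis 6 were called lower and 1 higher (median -0.55). The major lipid droplet protein MLDP, which coats the droplets, had 1216, 1262 and 1377 FPKM at SS-6 h and 461, 441 and 386 FPKM at SS-12 h (-1.58 ± 0.15, adjusted p = 5.05e-07). DGTT5, a type II diacylglycerol acyltransferase that performs the last step of TAG synthesis, went from 139, 145 and 155 FPKM to 54.3, 50.0 and 49.4 FPKM (-1.49 ± 0.10, adjusted p = 1.06e-08). Both genes had non-overlapping samples. Of the 8 DGTT genes 4 were called lower, and the others ranged up to 0.61. PAP3, a phosphatidate phosphatase, was lower by 1.60 on the log2 scale, with a wide spread at SS-6 h (170.0, 349 and 420 FPKM, the lowest in replicate 1) and 82.8, 106 and 99.6 FPKM at SS-12 h. GPAT1, the acyltransferase of the first step, went against the list at 1.06 ± 0.08 (adjusted p = 3.27e-08), although median-of-ratios scaling put it at 0.91, short of the fold needed for a call.

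Desaturases went both ways, 2 of 11 lower and 2 higher, where 5.18% and 10.1% of all genes were. FAD2, which inserts the second double bond of linoleic acid, stood at 209, 276 and 357 FPKM at SS-6 h and at 40.9, 51.6 and 40.5 FPKM at SS-12 h (-2.61 ± 0.28, adjusted p = 1.55e-06). SAD1, which makes the first double bond in the chloroplast, fell by 2.06 on the log2 scale. The rises were in desaturases of the chloroplast galactolipid MGDG, FAD5 like (1.12) and delta4FAD (1.04). Neither was called after median-of-ratios scaling, at 0.97 and 0.89, and delta4FAD was at 0.87 without SS-6 h replicate 1.

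**Figure D3:**
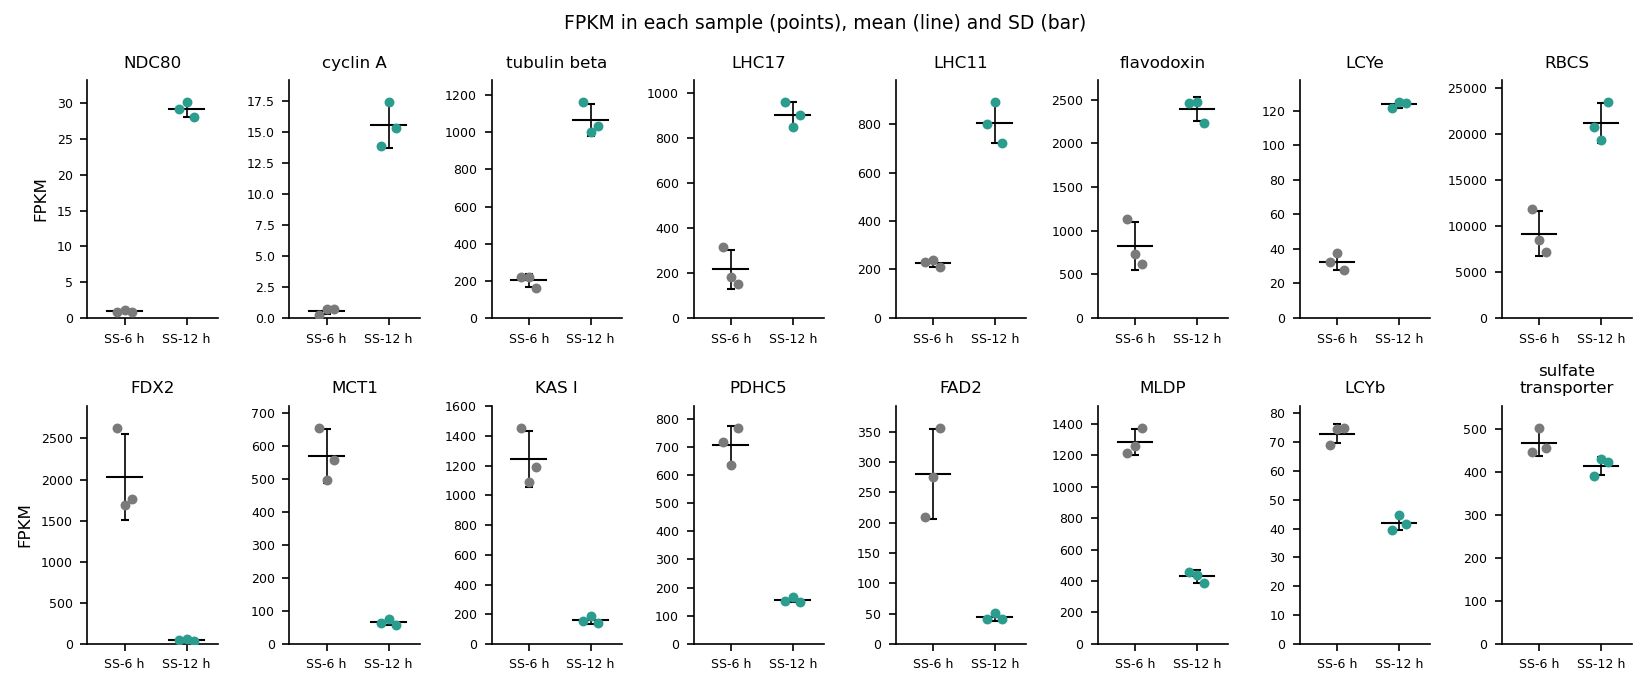
FPKM of 16 genes in the 3 SS-6 h (grey) and the 3 SS-12 h samples (green); lines are means, bars are SD, and each panel has its own axis from 0. The upper row holds genes that were called higher, from NDC80 to RBCS, and the lower row holds genes with lower means, of which LCYb (-0.78) and the sulfate transporter Cz03g08060 (-0.18) were not called.

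The antenna genes encode the chlorophyll a/b-binding proteins that feed light to the photosystems, and all 18 were called higher at SS-12 h, with log2 differences from 1.16 to 2.13 (median 1.57). In each of the 18 genes every SS-12 h sample lay above every SS-6 h sample, which held for 34.6% of all genes. Their summed level was 7421, 6303 and 5165 FPKM at SS-6 h and 18455, 16373 and 18708 FPKM at SS-12 h. It stayed below the 0 h level, 51027 to 59816 FPKM. LHC17, of photosystem II, had the largest difference, from 315, 181 and 152 FPKM to 960.4, 846 and 899 FPKM (2.13 ± 0.20, adjusted p = 2.78e-07). LHCSR, a stress-related antenna protein that dissipates excess light in green algae, had the smallest (1.16 ± 0.15, adjusted p = 8.46e-06) and was the only one to miss the fold threshold after median-of-ratios scaling. Of the 18 genes 17 were taken from the study's expression table among the genes most abundant at 0 h, which the comparison with 0 h shares. Antenna genes that were low at 0 h may therefore be missing from the list.

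LHC11, an antenna gene of photosystem I, entered the list because the study named it as a strong rise at 6 h, and it was the only antenna gene called higher at SS-6 h than at 0 h. Before starvation its mean was 3.80 ± 0.80 FPKM (SD, n = 3). After 6 h it was 227 ± 15.98 FPKM, after 12 h 806 ± 85.2 FPKM and after 24 h 16.9 ± 2.83 FPKM. In single samples it held 232, 239.8 and 209 FPKM at SS-6 h and 802, 893 and 722 FPKM at SS-12 h (1.82 ± 0.14, adjusted p = 3.02e-08). Cz14g01090, the gene with the next identifier in the annotation, encodes flavodoxin, a flavin protein that can stand in for ferredoxin as electron carrier. Flavodoxin held 1136, 729 and 618 FPKM at SS-6 h and 2469, 2479 and 2239 FPKM at SS-12 h (1.58 ± 0.20, adjusted p = 7.93e-06), with means of 8.36 FPKM at 0 h and 31.6 FPKM at SS-24 h. Of 48 genes used here from the study's list of strongest rises at 6 h, LHC11 and flavodoxin were the 2 called higher.

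Many subunits of the photosystems were called higher as well, and none of the electron carrier and cytochrome b6f genes with a PET symbol was. Of 41 genes for photosystems and electron transport 18 were called higher and 1 lower, with a median of 0.93. The counts were 24 and 2 without SS-6 h replicate 1, 16 and 2 after median-of-ratios scaling, and 20 and 2 with both changes. Photosystem I had 9 of 10 PSA genes called (median 1.36) and photosystem II 7 of 9 PSB genes (median 1.31). None of the 7 PET genes and none of the 4 chloroplast ATP synthase genes was called. The largest rises of the list, Cz13g08015 (2.60) and Cz11g03180 (1.62), have no name in the sources used here, so their role is not given. Among the carriers, plastocyanin (PETE) had a difference of 0.72, short of the fold threshold with all SS-12 h samples above those of SS-6 h, and cytochrome c6 (PETJ), which carries electrons to photosystem I in its place, one of 0.32. Ferredoxin PETF held 4654, 2674 and 2678 FPKM at SS-6 h and 2623, 2253 and 2481 FPKM at SS-12 h (-0.39 ± 0.17, adjusted p = 0.0601).

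FDX2, another ferredoxin, went the opposite way to the photosystem genes. It had 2632, 1696 and 1763 FPKM at SS-6 h, below PETF in each of these samples, and 41.7, 56.9 and 38.6 FPKM at SS-12 h. The difference of -5.43 ± 0.29 (adjusted p = 1.11e-09) was 44.4-fold between the means. On the log2(FPKM + 1) scale it was the largest of the 80 falls with a name or description. At 0 h FDX2 stood at 25.2 ± 9.57 FPKM and at SS-24 h at 5.41 ± 0.74 FPKM, so that of the 6 conditions SS-6 h alone had it at over 100 FPKM. In Chlamydomonas the protein of this name delivers electrons to nitrite reductase.

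Of 33 genes listed for chlorophyll and porphyrin synthesis 22 were called higher and 1 lower, with a median of 1.52. They summed to 2741, 2873 and 2598 FPKM at SS-6 h and to 7392, 7189 and 7383 FPKM at SS-12 h, above the 5794 to 6122 FPKM of 0 h. The largest differences belonged to genes with no name in the sources used here, led by UNPLg00023 at 2.75 ± 0.14 (adjusted p = 8.74e-10), with 15.7, 23.5 and 20.7 FPKM and then 135, 143 and 137 FPKM. Among the named members, taken up after their values were seen, GSA, which makes the precursor 5-aminolevulinate, went from 72.5, 70.9 and 54.7 FPKM to 313, 294 and 309 FPKM (2.20). CRD1, a subunit of the cyclase that closes the fifth ring of the chlorophyll macrocycle, rose by 1.81. Cz14g25130 went the other way at -1.19 ± 0.11 (adjusted p = 4.12e-07).

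The list of carbon fixation genes was split. Of 25 listed genes 7 were called higher and 5 lower. RBCS, the most abundant transcript of the list, held 11887, 8491 and 7112 FPKM at SS-6 h and 20761, 19291 and 23502 FPKM at SS-12 h (1.24 ± 0.33, adjusted p = 0.00495). In a fit of the 6 samples alone its adjusted p was 0.105, and with quantile normalization its difference was 0.36. Against the rises of RBCS, FBA3 and FBP1 stood falls of FBA4 and GAPDH. GAPDH is annotated as the NAD form of glyceraldehyde 3-phosphate dehydrogenase. It had 1573, 1710 and 1746 FPKM at SS-6 h and 484, 537 and 452 FPKM at SS-12 h (-1.77 ± 0.12, adjusted p = 8.16e-09). FBA3, FBA4, FBP1 and GAPDH belong to the glycolysis list too, and which pathway each serves was not tested. The early light-induced proteins ELIP4 and ELIP7, which bind chlorophyll during light stress, were both lower, at -1.94 and -1.60.

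Carotenoid genes moved little as a list, with a median of 0.18. Of 36 genes 6 were called higher and 2 lower, where 10.1% and 5.18% of all genes were. After median-of-ratios scaling 3 were higher and 2 lower. The branch point at lycopene showed opposite values. LCYe, the epsilon cyclase that leads to lutein, went from 32.4, 37.5 and 27.9 FPKM to 122, 125 and 125 FPKM (1.90 ± 0.13, adjusted p = 1.6e-08). LCYb, the beta cyclase that leads to beta-carotene, went from 69.2, 74.7 and 75.1 FPKM to 39.7, 44.8 and 41.5 FPKM, a difference of -0.78 ± 0.08 (adjusted p = 1.43e-06) that is under the fold threshold. The samples of either gene did not overlap.

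The ketolase BKT1, which takes beta-carotene towards astaxanthin, had 52.2, 83.1 and 86.4 FPKM at SS-6 h and 37.8, 54.7 and 41.4 FPKM at SS-12 h (-0.70 ± 0.16, adjusted p = 0.00184). Its conditions overlapped, since SS-6 h replicate 1 was below SS-12 h replicate 2. When that replicate was left out and median-of-ratios scaling applied, its difference was -1.07 and it was called lower. Phytoene desaturase (PDS), an early enzyme of the pathway, rose by 1.28. Both enzymes of the xanthophyll cycle rose as well, VDE by 1.20 and ZEP by 1.08, though ZEP was at 0.85 without SS-6 h replicate 1 and at 0.93 after median-of-ratios scaling. CRTISO3, a carotenoid isomerase (-1.23), and IPPI1, which isomerises the isoprenoid unit (-1.04), were the members called lower.

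Genes of cell division had the largest median of all the lists. Of 11 genes 9 were called higher and none lower, with a median of 2.68, and the other 2 had positive differences. The study had listed these genes from the comparison of SS-6 h with 0 h, in which each of the 11 fell (21.7% of all genes did), and the SS-6 h samples enter both comparisons, so their rise is given as a description. NDC80, a kinetochore protein that ties chromosomes to the spindle, had 0.88, 1.15 and 0.85 FPKM at SS-6 h and 29.2, 30.2 and 28.1 FPKM at SS-12 h (3.95 ± 0.18, adjusted p = 3.57e-10). On this scale it was the largest of the 102 rises with a name or description. By the ratio of mean FPKM it was 30.4-fold, below CDC6 with 42.05-fold. CDC6, which loads the replicative helicase at origins, went from 0.41, 0.33 and 0.14 FPKM to 12.1, 13.6 and 11.3 FPKM, and cyclin A from 0.24, 0.73 and 0.71 FPKM to 13.8, 17.5 and 15.3 FPKM. At such levels SS-6 h values rest on few reads, but the lowest SS-12 h value of either gene was more than 10 times its highest SS-6 h value.

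Condensin genes were also among the largest named rises. SMC4, a core subunit that compacts chromosomes, belongs to the cell division list above, chosen with the SS-6 h samples, so its rise is again only a description. It rose from 0.32, 1.43 and 1.53 FPKM to 19.9, 28.96 and 20.9 FPKM (3.57 ± 0.25, adjusted p = 1.69e-08). Condensin-2 subunit D3 was listed in only 1 of the SS-6 h samples, at 0.19 FPKM, and had 4.46, 7.18 and 5.97 FPKM at SS-12 h.

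Tubulin beta held 222, 222 and 162 FPKM at SS-6 h and 1165, 999 and 1035 FPKM at SS-12 h (2.41 ± 0.21, adjusted p = 1.48e-07), against a 0 h mean of 1048 ± 68.0 FPKM. The pair of tubulin alpha genes rose by 2.52 and 2.46, and histone H3 by 1.29, while neither of the actin genes was called. Of 25 microtubule motor genes, listed by the study mostly on the 6 h samples, 9 were called higher, the largest being Cz03g29240 (3.71 ± 0.20, adjusted p = 1.18e-09). The study chose the cilium list on SS-6 h against 0 h, so the SS-6 h samples enter both comparisons and its counts only describe it. It had 7 of 47 genes higher, with a median of 0.55, where 10.1% of all genes were higher. Its summed level overlapped between conditions, at 727 to 811 FPKM at SS-6 h and 773 to 803 FPKM at SS-12 h. With a pseudocount of 0.1 in place of 1 the cilium list had 22 rises.

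The machinery of protein synthesis and breakdown showed almost no calls. None of the 73 cytosolic ribosomal protein genes, none of 28 translation initiation factors and none of 6 elongation factors was called either way. Medians were 0.15, 0.21 and 0.22, next to 0.13 for all genes. Of all genes 10.1% were called higher and 5.18% lower. The ribosomal proteins summed to 178412, 97920 and 85342 FPKM at SS-6 h and to 126467, 117659 and 135260 FPKM at SS-12 h, so that the SS-12 h samples lay between SS-6 h replicate 1 and the other SS-6 h samples. Without that library the list median was 0.47, again with no calls. The study chose the initiation factor, ribosome biogenesis and proteasome lists on SS-6 h against 0 h. The SS-6 h samples thus enter both comparisons, and the counts of these lists only describe them. Of 61 ribosome biogenesis genes 1 was lower, and of 31 proteasome genes 1 was higher. That gene, Cz07g09200, had 2.40, 11.3 and 15.7 FPKM at SS-6 h and then 16.9, 21.95 and 19.6 FPKM (1.20 ± 0.39, adjusted p = 0.018), and its difference was 0.51 without SS-6 h replicate 1, no longer a call.

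Against 0 h, 42 of the 73 ribosomal proteins were called higher at SS-6 h and 65 at SS-12 h, where 9.64% and 7.42% of all genes were. The 13 ribosomal proteins of plastid type had a median of 0.62 and separate samples in 13 of 13 genes, but only L29 was called, at 1.06, and after median-of-ratios scaling it was at 0.90. Of 13 genes for mitochondrial ATP synthase and respiration none was called, and their differences ran from 0.04 to 0.48.

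None of 6 genes for sulfate uptake and sulfur amino acids was called, with a range of -0.31 to 0.88. Of all genes 10.1% were called higher and 5.18% lower, so a list of this size may hold no call. Its members were taken from the genes most abundant at 0 h. Genes of sulfur uptake that were low before starvation are therefore not covered. A sulfate transporter gene, Cz03g08060, held 447, 503 and 454 FPKM at SS-6 h and 389.9, 429 and 423 FPKM at SS-12 h (-0.18 ± 0.10, adjusted p = 0.176), each SS-12 h value being below each SS-6 h value. A second one, Cz03g08070, held 191, 388 and 396 FPKM and then 309.8, 365 and 338 FPKM (0.12 ± 0.20, adjusted p = 0.642), with the low value in replicate 1.

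Many of the strongest falls were in genes that had been very high at SS-6 h. The study's lists of strongest rises and falls at 6 h are longer than the 48 and 49 genes used here. Of the 48 rises 43 fell by 12 h, and of the 49 falls 32 rose. Both lists were chosen on the SS-6 h samples that also enter this step, so the counts only describe them. A peroxidase gene, Cz15g21190, had 1050.1, 1123 and 1206 FPKM at SS-6 h and 55.3, 49.0 and 53.3 FPKM at SS-12 h (-4.40 ± 0.18, adjusted p = 9.45e-11). It was still above its 0 h mean of 14.8 ± 2.62 FPKM. Cz15g02050, an aarF domain kinase of a family that works in chloroplast quinone metabolism, fell by 3.97 from 758, 617 and 625 FPKM to 49.9, 35.8 and 39.8 FPKM. A peroxiredoxin, Cz08g25270, was the one member of 18 antioxidant and thioredoxin genes that was called (-2.11), with 3585, 2234 and 2134 FPKM and then 505, 838 and 505 FPKM.

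Single genes departed from their families. Cz07g14070, annotated as ribosomal protein L19e but outside the list of abundant ribosomal proteins, had 117, 115 and 111 FPKM at SS-6 h and 11.1, 10.1 and 9.26 FPKM at SS-12 h (-3.37 ± 0.14, adjusted p = 1.05e-10). Cz01g01190, annotated as a regulatory subunit of the proteasome, rose by 2.67 from under 1 FPKM in each SS-6 h sample. The aquaporin Cz05g31250, a water channel of the vacuole membrane family TIP, went from 72.8, 59.4 and 46.6 FPKM to 771, 775 and 815 FPKM (3.72 ± 0.13, adjusted p = 6.76e-11). Its SS-12 h mean was also above the other conditions, of which 0 h and SS-24 h, with 219 ± 15.2 and 249.7 ± 17.5 FPKM, were the nearest. The extremes among genes with no name in the sources used here were Cz12g14130 (4.25) and Cz10g29030 (3.97) upwards and Cz17g17020 (-5.69) and Cz07g28190 (-5.55) downwards. Cz17g17020 was listed in 1 of the SS-12 h samples, at 2.03 FPKM, and had 97.8, 81.7 and 50.5 FPKM at SS-6 h.

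**Figure D4:**
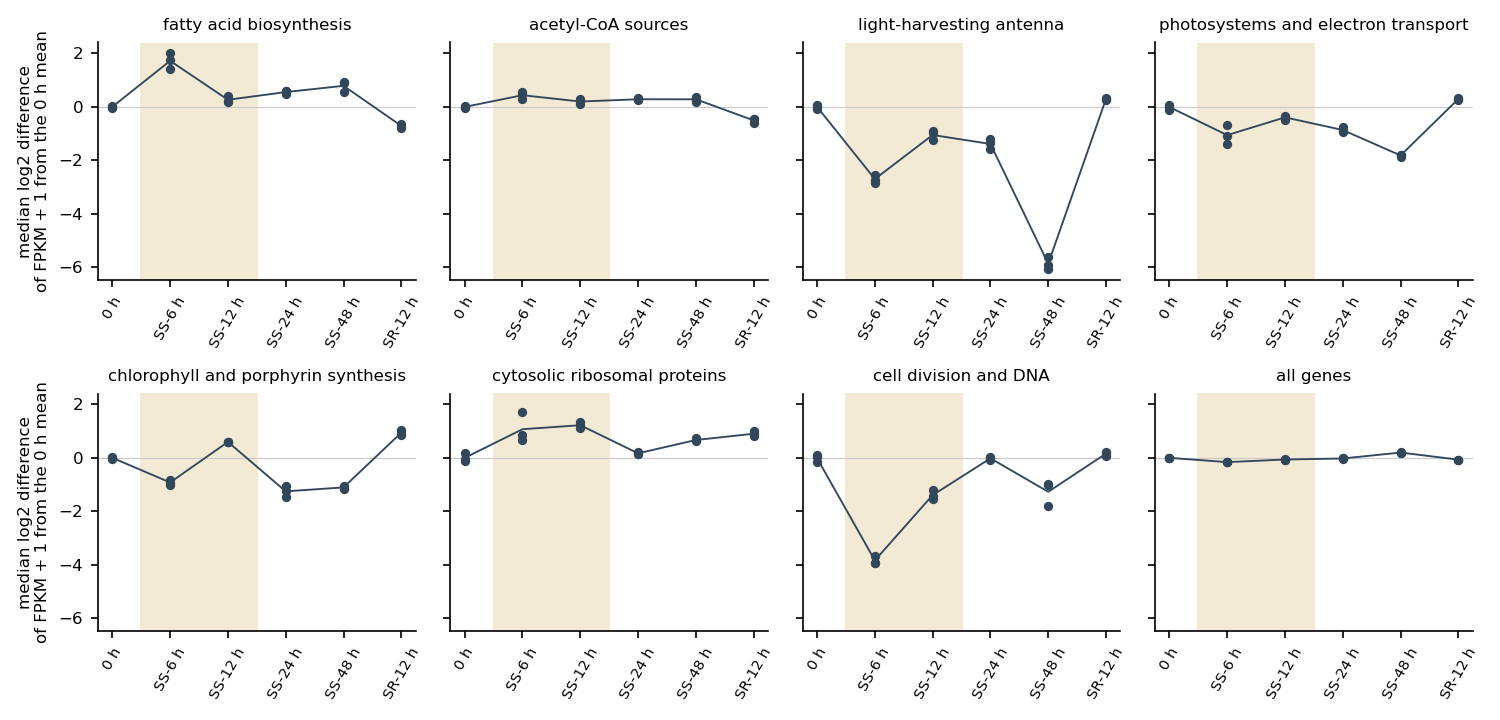
For 7 lists and for all genes, the median over members of log2(FPKM + 1) minus the mean of the 0 h samples, with a point for each sample, a line through the condition means and the 6 to 12 h step shaded. Fatty acid synthesis peaks at SS-6 h, antenna and cell division genes have a low there, chlorophyll genes stand above the 0 h level at SS-12 h, and SS-6 h replicate 1 lies apart in the ribosomal protein panel.

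Set beside the other conditions, each group had its own position at 12 h. The following comparisons share samples with the step and are given as their own values. Of the 23 fatty acid synthesis genes 14 were higher at SS-6 h than at 0 h (median 1.73) and 4 at SS-12 h (median 0.29). MCT1 had a mean of 87.2 ± 2.54 FPKM before starvation (SD, n = 3), 571 ± 81.0 FPKM after 6 h, 66.2 ± 8.57 FPKM after 12 h and 131 ± 8.13 FPKM after 24 h. Antenna genes had 17 of 18 lower at SS-6 h than at 0 h and 10 of 18 at SS-12 h, where 11.9% of all genes were lower. In the photosystem list 20 and then 4 of 41 were lower. Among the chlorophyll genes, 4 rises and 16 falls from 0 h were called after 6 h, and 13 rises and 2 falls after 12 h.

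In the next interval, SS-24 h against SS-12 h, 11.2% of all genes were higher and 8.73% lower. There, 25 of the 33 chlorophyll genes and 44 of the 73 ribosomal protein genes were lower, and 9 of the 11 cell division genes were higher. GSA had a mean of 207 ± 10.7 FPKM before starvation, 66.0 ± 9.86 FPKM after 6 h, 305 ± 9.95 FPKM after 12 h and 73.5 ± 17.96 FPKM after 24 h.

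Replenishment shares no sample with the step, so the calls of both can be compared. With SR-12 h set against SS-48 h, 8.21% of all genes were higher and 18.0% lower. Of the genes called higher in the step 417 were also higher at replenishment, which is 27.2% of the rises of the step and 33.4% of those of replenishment. Of those called lower 378 were also lower, 48.0% of the falls of the step and 13.8% of those of replenishment. Opposite calls were fewer, with 136 genes higher and then lower and 36 lower and then higher. In the later step from SS-24 h to SS-48 h, where 13.1% of genes were higher and 6.59% lower, the rises of the step divided into 264 that were higher and 233 that were lower.

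By list, 16 of the 18 antenna genes and 18 of the 18 called photosystem genes that rose in the step were also called higher at replenishment. Their medians there were 6.48 for the antenna and 2.32 for the photosystem list. LHC11 and LHCSR were the antenna genes that were not called. Of the 14 fatty acid synthesis genes that fell 13 were also lower at replenishment, as were all 6 of the acetyl-CoA genes. For chlorophyll synthesis 21 of 22 rises were shared, but the study had listed these genes, and part of the photosystem list, from the replenishment comparison. The ribosomal proteins, with no call in the step, had 2 higher and 1 lower at replenishment. Between SS-24 h and SS-48 h 17 of the 18 antenna genes were called lower (median -4.42), and no fatty acid synthesis gene was called lower.

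**Figure D5:**
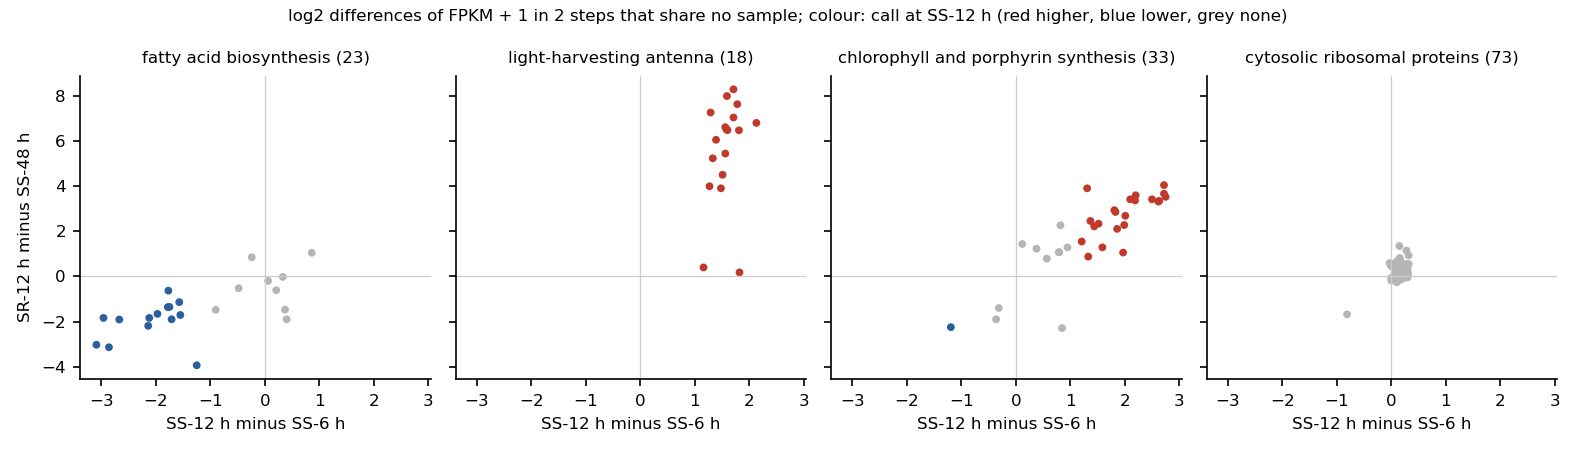
Each point is a gene of the list named above the panel, at its log2 difference of FPKM + 1 for SS-12 h minus SS-6 h on the horizontal and for SR-12 h minus SS-48 h on the vertical axis; red genes were called higher and blue ones lower in the step. Fatty acid synthesis genes lie mostly at the lower left, antenna and chlorophyll genes mostly at the upper right, and the 73 ribosomal proteins near the origin.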

How the data were processed

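Poly-A RNA of 18 samples was sequenced by the authors as single-end reads, aligned to the genome with HISAT and to reference genes with Bowtie2, and quantified with RSEM (versions and genome build not given in the sources used here). The deposited values are FPKM per gene and sample, computed by the authors and given to 0.01. Genes that a sample does not list were set to 0. Read counts per gene were not used here. Relative depth was estimated from the steps between low FPKM values, and precision was taken from the spread between replicates. The study describes 3 biological replicates per time point, and the sources used here do not say whether a replicate number follows 1 culture over time, so samples of different times may not be independent.

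All 18 samples were fitted as log2(FPKM + 1) with limma 3.58.1 (lmFit, contrasts.fit, eBayes with trend) in R 4.3.3, with a mean per condition and no replicate block. P-values were corrected over 15220 genes after Benjamini and Hochberg, and calls needed a log2 difference beyond 1 or -1 (inclusive) with an adjusted p up to 0.05. Such differences understate the change of low genes. The study's DESeq2 test needs counts and was not repeated. On simulated data for SS-12 h against SS-6 h with 200 of 15220 genes changed, 194 were recovered with the right sign, along with 1 false call. The simulation gave each gene the same independent spread in every sample. Its planted differences lay above the fold threshold and in better expressed genes only. It held no deviant library and no shift of the median, so it does not give the rate of false calls in these data. Tables were built with pandas 2.3.3 and numpy 2.4.6 under Python 3.11.15, exact tests with scipy 1.17.1, and plots with matplotlib 3.10.9.

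Gene lists (29, with 699 genes) and names came from the tables of the study, some of them chosen on the SS-6 h samples, on replenishment or by abundance at 0 h. The lists, members and the rule for named genes were chosen with earlier results of these data known. The rule took the 12 largest named rises and falls with separate samples, 2 unnamed genes each way, up to 4 called members of each list with any that went against it, and 21 pathway genes whatever their values. Other genes named in the text were chosen after their values were seen. Lists were described by counts and medians, with no test. Alternatives were other pseudocounts, filters, scalings and fits, and leaving out each replicate.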

Additional observations from a re-analysis of the deposited data

How the results depend on the processing

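Of 102 called genes that the naming rule took, 88 kept their call under each of the 19 alternatives that tested them, and no named gene changed direction while called. The rule took mostly genes with large differences, so this share does not hold for all calls. The rises counted 935 under quantile normalization against 1533, and the falls 883. Of the 1533 rises 891 were still called under it, and of the 788 falls 695. Leaving out 1 replicate gave 1438 to 1750 rises and 779 to 918 falls, the remaining samples being assumed to vary like the other conditions; the ends for the rises came without SS-6 h replicates 1 and 3. With median-of-ratios scaling and without SS-6 h replicate 1, an alternative chosen after seeing the data, they were 1181 and 1161. Pseudocounts of 0.1 and 0.5 gave 1991 and 1731 rises and 893 and 833 falls; the cause of these shifts was not tested. Same-numbered SS-6 h and SS-12 h samples had correlations of 0.298, 0.350 and -0.165 between their deviations from the condition means. For replicates 1 and 2 of SS-6 h the same number correlated best, while replicate 3 correlated best with replicate 2 of SS-12 h. Deviations within a condition depend on each other and SS-6 h replicate 1 stood apart, so these values cannot decide whether the numbers pair samples. The replicate block gave 1531 rises and 788 falls.

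Calls shared with other steps were less stable. Genes higher in the step and from SS-24 h to SS-48 h counted 426 with a pseudocount of 0.1, 133 with median-of-ratios scaling and 68 with quantile normalization, against 264. Genes lower and then higher in that interval counted 126 and 132 with the 0.1 pseudocount and with the fold of mean FPKM, against 75, and those lower in both 257 with median-of-ratios scaling, against 153. For replenishment, genes higher and then lower counted 259, 61, 38 and 251 with the 0.1 pseudocount, median-of-ratios scaling, quantile normalization and the fold of mean FPKM, and genes lower and then higher 60, 71, 71 and 65. Of 551 list medians under the alternatives 75 moved by more than the spread between replicates.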

Other observations

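Genes listed in only one of the conditions were few and low. In all SS-12 h and no SS-6 h sample 13 genes were listed, with means of 0.03 to 0.747 FPKM, and 0 of them reached the fold needed for a call. In all SS-6 h and no SS-12 h sample 10 were listed, with means of 0.0367 to 4.71 FPKM, of which 4 were called lower.

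Transcripts encoded in the chloroplast, which poly-A selection recovers poorly, made up 0.00338 to 0.00408% of summed FPKM at SS-6 h and 0.00477 to 0.00775% at SS-12 h. The samples did not overlap, and the exact permutation test (two-sided) gave p = 0.1, the smallest that 3 against 3 samples allow. For mitochondrial transcripts the shares were 0.0159 to 0.0226% and 0.0155 to 0.0216% (exact permutation test, p = 0.7).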
